A study of Homo sapiens with 9 samples.

Results

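The genes described here are 10 markers and regulators of intestinal epithelial cells: the keratin genes KRT8, KRT18, KRT19 and KRT20, the secretory gene AGR2, the water and glycerol channel gene AQP3, the brush border gene VIL1, the cadherin gene CDH17, and the transcription factor genes CDX2 and HNF4A. They were chosen by symbol, all 10 were found among the 28307 genes of the count table, and all 10 passed the filter on low counts that left 15619 tested genes. RNA was sequenced from SW620, an established human line from a lymph node metastasis of a colon adenocarcinoma, labelled wild type. All groups grew as suspension cultures on plates that prevent attachment, and their medium held insulin, basic FGF and EGF. The groups were 120 µM streptomycin (SM) for 48 h, 120 µM dihydrostreptomycin (DSM) for 48 h, and no antibiotic, with 3 libraries each. SM is an aminoglycoside that binds the bacterial ribosome, and DSM is its derivative with an alcohol in place of the aldehyde.

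The lining of the gut is renewed from stem cells whose progeny become absorptive cells or secretory cells such as goblet cells. CDX2 sets intestinal identity and HNF4A, a nuclear receptor, drives absorptive genes. Simple epithelial keratins form filaments as pairs of a type II keratin, such as KRT8, with a type I keratin, such as KRT18, KRT19 or KRT20, and KRT20 marks the most mature cells of the gut lining. AGR2 is a protein disulfide isomerase of the endoplasmic reticulum that goblet cells use to make mucins.

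Total counts lay between 39315662 and 65562227 per library, and SM replicate 2 was the lowest. The libraries are numbered 1 to 3 in each group. Levels are given in CPM, counts scaled to a common library total. The libraries numbered 1 stood apart from the others in every group, and 9 of the 10 genes differed between them and the rest. Of all tested genes, 21.7% were called as higher and 20.3% as lower in the libraries numbered 1. Log2 fold changes are therefore given from a fit on group alone and from a fit that also has the replicate number, called the blocked fit. A change is called at an adjusted p below 0.05 over all tested genes. In bulk RNA, fewer cells of a type and less RNA per cell cannot be told apart.

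The line had the general epithelial markers of its label, and few of the genes of mature gut cells. EPCAM, an epithelial adhesion molecule, lay between 414 and 462 CPM over the 9 libraries, and CDH1, which encodes E-cadherin, between 194 and 344 CPM. VIM, the filament gene of mesenchymal cells, lay between 929 and 1501 CPM. CDX1, the relative of CDX2, had 1 read in all 9 libraries together, ATOH1, the factor that commits cells to secretory fates, had 0, and SI, the sucrase of absorptive cells, had 2. Of the markers of other cell types, PTPRC of leukocytes had 19 reads in all and MYH11 of smooth muscle 94. PECAM1 of endothelium lay between 0.474 and 1.48 CPM, and COL1A1 of fibroblasts between 7.01 and 13.3 CPM.

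Per kilobase of exon in GENCODE 29, the 3 abundant keratins stood far above the other genes in untreated cells. KRT18 averaged 1778 ± 188 CPM per kb, KRT8 1445 ± 188 and KRT19 1086 ± 256 (SD, n = 3 each). The order of KRT8 and KRT18 turned when the longest coding transcript gave the length, and KRT8 and KRT19 overlapped between libraries. VIL1 followed at 69.5 ± 6.18 CPM per kb, HNF4A at 35.2 ± 1.37, AQP3 at 19.1 ± 6.87 and AGR2 at 6.26 ± 2.22. CDX2 averaged 3.16 ± 0.682 CPM per kb, CDH17 1.77 ± 0.397 and KRT20 0.182 ± 0.154. From KRT19 down to KRT20, no gene overlapped its neighbour in this order between untreated libraries.

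**Figure D1:**
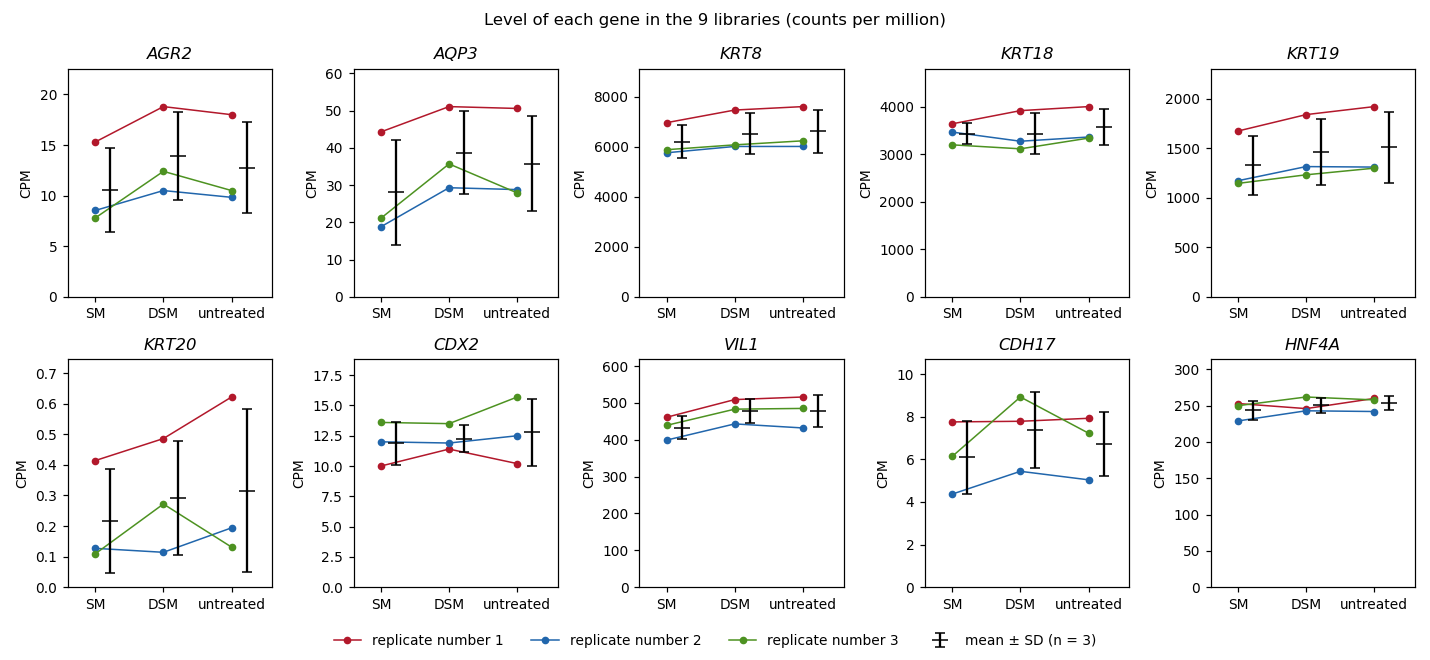
Each panel plots 1 gene in CPM (linear axis from 0) for SM, DSM and untreated cells. Lines join the libraries with the same replicate number, and the black marks are the mean ± SD of 3 libraries. For AGR2, AQP3, KRT8, KRT19, VIL1 and CDH17 every line is lower at SM than at DSM, though barely for CDH17 number 1 (7.76 and 7.79 CPM). For AGR2, AQP3, KRT8, KRT18, KRT19, KRT20 and VIL1 the library numbered 1 is the highest of its group.

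KRT19 encodes the smallest type I keratin, which is found in simple and ductal epithelia. Its level was 1674, 1172 and 1145 CPM in SM replicates 1, 2 and 3, 1840, 1315 and 1232 CPM in DSM replicates 1, 2 and 3, and 1921, 1310 and 1299 CPM in untreated replicates 1, 2 and 3. The groups overlap, because each library numbered 1 lies above all libraries with other numbers, but within each number the SM library is the lowest of the 3. The gene lies on chromosome 17 (41523617 to 41528308, minus strand) and is transcribed as 1 coding transcript of 1390 bases.

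KRT8 and KRT18 encode the usual filament pair of simple epithelia. KRT8 had 6962, 5758 and 5881 CPM with SM, 7467, 6011 and 6075 CPM with DSM, and 7605, 6011 and 6236 CPM without treatment, in the order of the replicate numbers. The SM library was the lowest within each number. KRT18 had 3645, 3471 and 3202 CPM with SM, 3923, 3278 and 3118 CPM with DSM, and 4008, 3367 and 3344 CPM without treatment. SM replicate 2 was above its DSM and untreated counterparts, so KRT18 showed no common order. KRT8 ranked 3 or 4 among all genes in every library, and KRT8, KRT18 and KRT19 together took 1.03% to 1.33% of all counts. The gene models of KRT8 (chromosome 12, 52897187 to 52949954, minus strand) and KRT18 (52948871 to 52952901, plus strand) overlap by 1084 bases on opposite strands, and reads there cannot be assigned without strand. The count table held 1 pseudogene of each of KRT8, KRT18 and KRT19, and none passed the filter. How reads that match other keratin copies were counted is not given, so these 3 levels are uncertain to that extent.

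The ratio of KRT8 to KRT18 lay between 1.66 and 1.91 with SM, between 1.83 and 1.95 with DSM and between 1.79 and 1.90 without treatment. The ratio of KRT8 to KRT19 was 4.16, 4.91 and 5.14 with SM, 4.06, 4.57 and 4.93 with DSM, and 3.96, 4.59 and 4.80 without treatment, so it was highest with SM within each number. KRT20 was near the limit of detection, with 22, 5 and 6 reads with SM, 27, 6 and 15 with DSM and 40, 11 and 8 without treatment. SM replicate 3, at 0.109 CPM, had an exact Poisson 95% interval of 0.04 to 0.237 CPM (counting error only), which holds the level of the untreated library of the same number, 0.131 CPM.

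AGR2 and AQP3 had the widest spread of the better-measured genes. AGR2 had 15.3, 8.53 and 7.79 CPM with SM, 18.8, 10.5 and 12.4 CPM with DSM, and 18.0, 9.83 and 10.5 CPM without treatment, by replicate number. AQP3 had 44.3, 18.8 and 21.1 CPM with SM, 51.1, 29.3 and 35.7 CPM with DSM, and 50.6, 28.8 and 27.9 CPM without treatment. For both genes the SM library was the lowest and the DSM library the highest within every number. Among pairs of the 10 genes these were close to parallel over the 9 libraries (Pearson r = 0.976, a description over libraries that share their replicate numbers).

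The promoters of AGR2 and AQP3 are shown because these 2 mRNAs moved together while their upstream sequences differ in G and C content. Each is the 250 bases before the RefSeq start, 5′ to 3′ on the gene's strand, with motif matches in capitals. AGR2 is chr7:16805000-16805249 on the minus strand of GRCh38.p14, and AQP3 is chr9:33447594-33447843 on the minus strand.
AGR2: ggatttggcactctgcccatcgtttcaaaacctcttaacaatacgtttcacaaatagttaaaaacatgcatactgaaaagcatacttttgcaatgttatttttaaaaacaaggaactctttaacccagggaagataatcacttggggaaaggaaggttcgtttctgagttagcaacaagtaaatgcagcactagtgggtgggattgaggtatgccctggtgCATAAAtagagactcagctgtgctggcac
AQP3: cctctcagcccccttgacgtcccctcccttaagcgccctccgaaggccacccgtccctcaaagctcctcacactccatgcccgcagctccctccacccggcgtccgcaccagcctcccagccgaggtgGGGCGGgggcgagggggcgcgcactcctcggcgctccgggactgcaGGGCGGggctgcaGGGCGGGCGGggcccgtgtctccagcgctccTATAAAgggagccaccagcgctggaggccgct
Both strands were searched for the TATA box as TATAAA, for the CDX motif as TTTATG and for the SP1 motif as GGGCGG. The HNF4 motif was searched as CAAAGTCCA, the FOXA motif as TGTTTAC, the AP-1 motif as TGANTCA and the HNF1 motif as its palindrome. The AGR2 window is 40.4% G and C and the AQP3 window 73.6%, against a median of 58% over 35116 promoters. AGR2 holds 1 match, CATAAA at bases -29 to -24 from the start, which is the CDX motif on the other strand. KRT20 has the same letters at the same bases. CATAAA differs from TATAAA only in its first letter, and it lies close to where AQP3 has TATAAA. The TATA box was searched by exact letters, so such a near match was not counted. Whether CATAAA acts as either motif was not tested. AQP3 holds TATAAA at -32 to -27 and 4 matches of GGGCGG, of which the last 2 overlap. Of all promoters, 9.64% hold the CDX motif, 10.7% the TATA box and 42.6% the SP1 motif. A match is a description of the letters, and no binding was measured.

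VIL1 encodes villin, which bundles actin in the microvilli of the brush border. It had 461, 399 and 439 CPM with SM, 509, 443 and 483 CPM with DSM, and 516, 432 and 485 CPM without treatment. The SM library was the lowest within every number, by about the same step each time. VIL1 (chromosome 2, 218419092 to 218453295, plus strand) overlaps USP37 on the other strand by 3045 bases. CDH17 encodes LI-cadherin, the adhesion molecule of the gut lining. It had 7.76, 4.37 and 6.14 CPM with SM, 7.79, 5.44 and 8.93 CPM with DSM, and 7.93, 5.04 and 7.23 CPM without treatment. The SM library was again the lowest within each number, but by a step of varying size.

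CDX2 had 10.0, 12.0 and 13.6 CPM with SM, 11.4, 11.9 and 13.5 CPM with DSM, and 10.2, 12.5 and 15.7 CPM without treatment. It differed from the other genes in that its libraries numbered 1 were the lowest of each group. HNF4A had 253, 229 and 250 CPM with SM, 246, 243 and 262 CPM with DSM, and 260, 242 and 258 CPM without treatment. It was the steadiest of the 10 genes, with all libraries between 229 and 262 CPM. The HNF4A gene (chromosome 20, 44355700 to 44434596, plus strand) overlaps the antisense gene HNF4A-AS1.

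With SM, AGR2, KRT19 and VIL1 were lower than in untreated cells once the replicate number was in the fit. AGR2 averaged 10.5 ± 4.14 CPM with SM and 12.8 ± 4.54 CPM without, KRT19 1330 ± 298 and 1510 ± 356 CPM, and VIL1 433 ± 31.2 and 477 ± 42.3 CPM (SD, n = 3 each). In the blocked fit AGR2 fell by 0.29 on the log2 scale (SE 0.073), KRT19 fell by 0.18 (SE 0.032) and VIL1 fell by 0.14 (SE 0.031), or percent changes of -18%, -11.8% and -9.22%. Their edgeR adjusted p were 0.0325, 0.00173 and 0.0119. In the fit on group alone 0 of the 10 genes were called by edgeR and 0 by DESeq2, 0 had an unadjusted p under 0.05, and each had an adjusted p of 1. Over all genes, 0.0192% were called without the block, and with it 1.54% were called as lower and 1.2% as higher. The groups overlapped for all 10 genes, while 3.46% of all tested genes were lower and 3.27% higher with no overlap.

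All 10 genes had a negative log2 fold change for SM against untreated, with a median of -0.14, against 50.3% of all tested genes and a median of -0.00073. Several of the genes vary in parallel over the libraries (r = 0.984 for KRT8 with KRT19), though CDX2 does not (r = -0.713 with KRT19), so these are not 10 separate observations. In 9 of 10 the SM library was lower within each of the 3 pairs, KRT18 being the exception, and 18.9% of all tested genes did so. The step within the 3 pairs was -0.20, -0.16 and -0.18 for KRT19, -0.16, -0.11 and -0.14 for VIL1, and -0.23, -0.20 and -0.43 for AGR2. AQP3 had steps of -0.19, -0.61 and -0.40 and missed the threshold with the block, at -0.38 on the log2 scale (SE 0.099, edgeR adjusted p = 0.0931). KRT8 had -0.091 (SE 0.034, edgeR adjusted p = 0.175 with the block), and DESeq2 with the block called it (adjusted p = 0.0327).

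The blocked calls for SM against untreated depended on single libraries. The edgeR adjusted p of AGR2 was 0.239 without SM replicate 3 and 0.204, 0.136 and 0.192 without untreated replicates 1, 2 and 3. That of KRT19 was 0.0516 without untreated replicate 1 and 0.0612 without untreated replicate 3, and that of VIL1 was 0.178, 0.0703 and 0.159 without untreated replicates 1, 2 and 3. AQP3 passed without SM replicate 1 (1.25e-05), DSM replicate 1 (5.51e-04) or DSM replicate 3 (0.00434). The log2 fold changes moved little, from -0.20 to -0.17 for KRT19 and from -0.15 to -0.13 for VIL1 over the 9 blocked fits with 1 library left out, but from -0.34 to -0.20 for AGR2 and from -0.54 to -0.30 for AQP3. With the 3 libraries numbered 1 left out, AQP3 passed also on group alone (-0.50, edgeR adjusted p = 0.015), and AGR2 (0.098) and VIL1 (0.125) did not pass with the block.

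**Figure D2:**
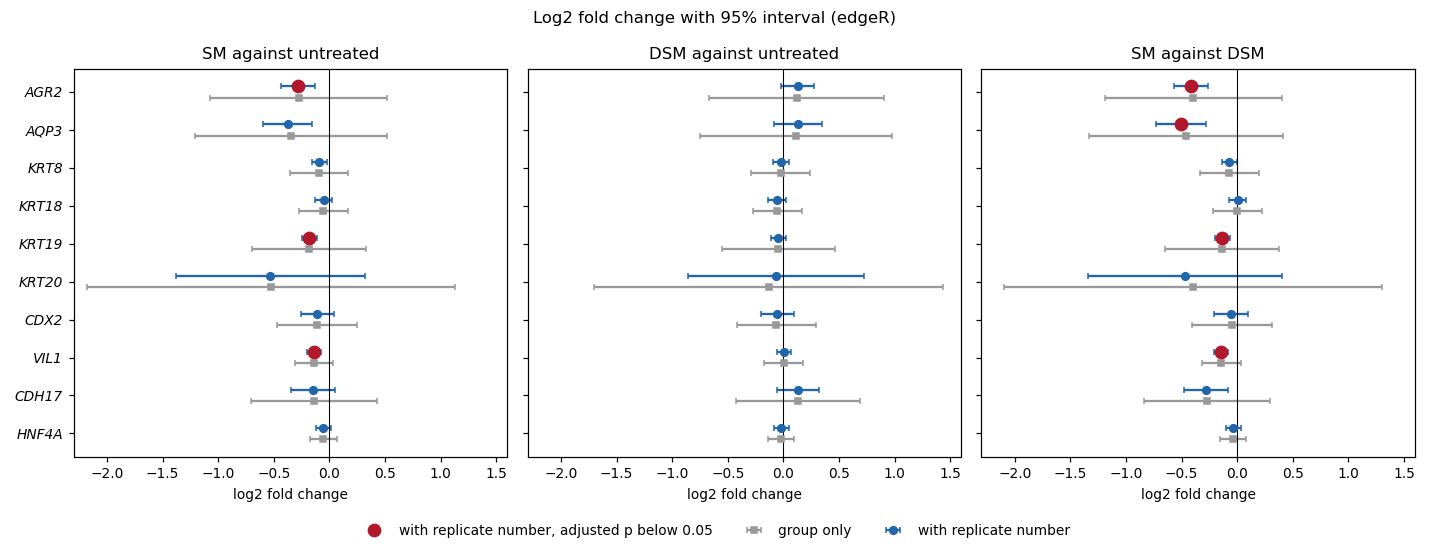
Log2 fold changes with 95% intervals for SM against untreated, DSM against untreated and SM against DSM. Grey squares are from the fit on group alone and blue circles from the fit with the replicate number, with red where the adjusted p is below 0.05. Red marks AGR2, KRT19 and VIL1 for SM against untreated and AGR2, AQP3, KRT19 and VIL1 for SM against DSM, and all grey intervals include 0.

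With DSM none of the 10 genes was called against untreated cells, with or without the block, by edgeR. Over all 15619 genes edgeR also called 0 (0%) in this comparison with or without the block, while 103 had an unadjusted p under 0.05 without it and 650 with it. No member was called by DESeq2 or limma voom either. AGR2 averaged 13.9 ± 4.37 CPM with DSM and 12.8 ± 4.54 CPM without, and AQP3 38.7 ± 11.2 and 35.8 ± 12.8 CPM (SD, n = 3 each). The blocked log2 fold change was 0.13 for AGR2 (95% interval -0.017 to 0.27) and 0.13 for AQP3 (-0.085 to 0.35), and the DSM library was higher in all 3 pairs for both. For KRT19 it was -0.044 (-0.11 to 0.023), and for VIL1 0.0041 (-0.060 to 0.068).

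Of the other genes, CDH17 had a blocked log2 fold change of 0.14 with DSM (95% interval -0.053 to 0.32), CDX2 one of -0.053 (-0.20 to 0.092), HNF4A one of -0.018 (-0.085 to 0.050), KRT8 one of -0.021 (-0.091 to 0.048) and KRT18 one of -0.057 (-0.14 to 0.021). KRT20 had too few reads for a narrow interval, at -0.064 (-0.86 to 0.73). All 3 pairs were higher with DSM for 2 genes and lower for 2, KRT8 and KRT18, against 14.3% and 15.1% of all tested genes. The groups overlapped for all 10 genes, and 2.2% of all tested genes were higher and 2.22% lower with no overlap. With DSM 6 of the 10 genes had a negative fold change on group alone, and 50.4% of all tested genes did.

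The comparison of SM with DSM sets the aldehyde compound against the alcohol compound at the same concentration and time, and it was the only pair of compounds. AGR2, AQP3, KRT19 and VIL1 were lower with SM in the blocked fit, and 0 of the 10 genes were called on group alone by edgeR or by DESeq2. Over all genes 0% were called on group alone, and with the block 2.15% were called as lower and 1.73% as higher. No gene of the 10 had groups without overlap, and 3.16% of all tested genes were lower and 3.41% higher with none. AQP3 fell by 0.51 on the log2 scale (SE 0.099, edgeR adjusted p = 0.0233 with the block), to 28.1 ± 14.1 CPM with SM, against 38.7 ± 11.2 CPM with DSM (SD, n = 3 each). AGR2 fell by 0.42 (SE 0.074, edgeR adjusted p = 0.00126 with the block), a percent change of -25%, and that of AQP3 was -29.6%. KRT19 fell by 0.14 (SE 0.033, adjusted p = 0.0158) and VIL1 by 0.14 (SE 0.031, adjusted p = 0.00739), both by edgeR with the block.

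The step within the 3 pairs was -0.144, -0.148 and -0.139 for VIL1, which was the most even of the 4. It was -0.14, -0.17 and -0.11 for KRT19, -0.30, -0.29 and -0.67 for AGR2, and -0.21, -0.64 and -0.76 for AQP3. The 2 genes with the larger differences therefore varied more between pairs. In 6 of 10 genes the SM library was lower within each pair, as in 16.2% of all tested genes.

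For the other 6 genes no difference between SM and DSM was called, and the blocked intervals give the sizes that remain possible. They were -0.48 to -0.086 for CDH17 (log2 fold change -0.28, edgeR adjusted p = 0.104), -0.14 to -0.00032 for KRT8, -0.073 to 0.083 for KRT18, -0.10 to 0.031 for HNF4A, -0.21 to 0.094 for CDX2 and -1.34 to 0.41 for KRT20. Leaving out 1 library did not end the call of AGR2 in any of the 9 blocked fits (edgeR adjusted p up to 0.0332). Without DSM replicate 2 the adjusted p was 0.159 for AQP3, 0.154 for KRT19 and 0.0667 for VIL1, and for AQP3 it was also 0.102 without SM replicate 2 and 0.116 without SM replicate 3. CDH17 passed without SM replicate 1 (0.0247) or DSM replicate 1 (0.0265), both numbered 1. With the 3 libraries numbered 1 left out, AGR2 (-0.49, edgeR adjusted p = 0.039) and AQP3 (-0.70, edgeR adjusted p = 5.79e-04) passed on group alone, and with the block KRT19 missed the threshold (adjusted p = 0.0542) while CDH17 passed it (-0.445, edgeR adjusted p = 0.017). The 2 comparisons that involve SM share its libraries, and those with untreated cells share the untreated libraries.

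The largest source of variation for all 10 genes was the replicate number and not the treatment. This division was not made for other genes, so it does not set these 10 apart. In log2 CPM the number took between 64.9% (VIL1) and 91.9% (KRT8) of the sum of squares, and the group between 4.6% (CDX2) and 34.3% (VIL1). The rest was 0.33% for KRT19, 0.786% for VIL1 and 0.807% for KRT8, against 17.9% for HNF4A. Removing the number therefore left KRT19, VIL1 and KRT8 with little unexplained spread.

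**Figure D3:**
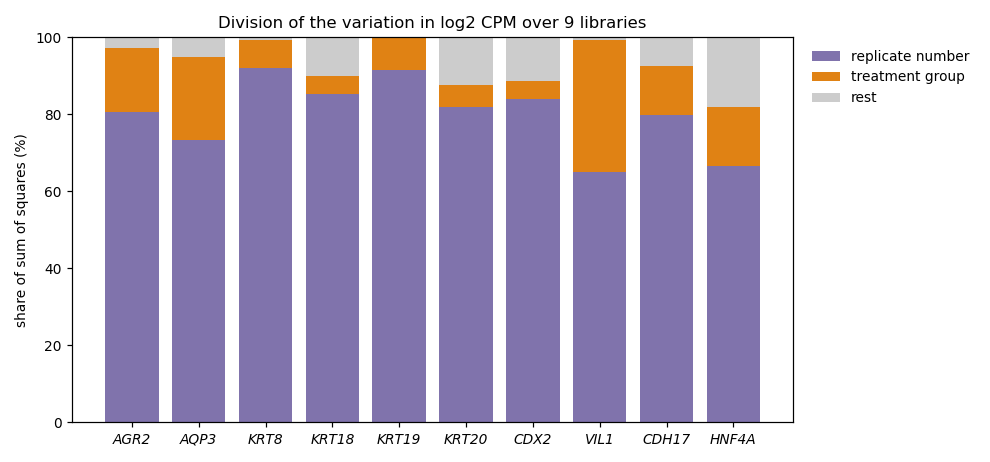
Stacked bars divide the variation of each gene's log2 CPM over the 9 libraries into replicate number, treatment group and rest, as percent of the sum of squares. The replicate number is the largest share in all 10 genes, and VIL1 has the largest share for treatment (34.3%).

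In the libraries numbered 1, 8 of the 10 genes were higher than in those numbered 2 and 3 and CDX2 was lower, against 21.7% and 20.3% of all tested genes. AGR2 averaged 17.4 CPM in the libraries numbered 1 and 9.91 CPM in the others, a log2 difference of 0.82 (SE 0.060, edgeR adjusted p = 1.48e-10), and AQP3 48.7 and 26.9 CPM, a difference of 0.87 (SE 0.081, edgeR adjusted p = 1.73e-05). For both genes the lowest library numbered 1 (15.3 and 44.3 CPM) was above the highest of the others (12.4 and 35.7 CPM). KRT19 differed by 0.54 (SE 0.028), KRT8 by 0.29 (SE 0.029), KRT18 by 0.23 (SE 0.032), CDH17 by 0.37 (SE 0.079) and VIL1 by 0.15 (SE 0.027). For CDH17 and VIL1 the libraries overlapped: CDH17 lay between 7.76 and 7.93 CPM in the libraries numbered 1 and between 4.37 and 8.93 CPM in the others, where DSM replicate 3 was above all those numbered 1 and the 3 libraries numbered 2 were the lowest. VIL1 lay between 461 and 516 CPM in the libraries numbered 1 and between 399 and 485 CPM in the others. KRT20 differed most, at 0.507 against 0.158 CPM (1.69, SE 0.32). CDX2 was lower by -0.32 (SE 0.062), at 10.6 against 13.2 CPM, and HNF4A was not called (0.034, SE 0.028, edgeR adjusted p = 0.352). What the number stands for was not stated, and the cause of this difference was not tested.

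The genes whose pattern over the 9 libraries was most like that of AGR2 were EPHB2, an ephrin receptor of the crypt (Pearson r = 0.995), SKAP1 (r = 0.992) and FCGRT (r = 0.992), among 9050 genes considered. AQP3 was closest to BCL2L15 (r = 0.992), DAG1 (r = 0.991) and PRKCA (r = 0.990). KRT19 was closest to CYB5B (r = 0.997), MTMR3 (r = 0.993) and the actin gene ACTG1 (r = 0.991), and KRT8 to HADHA (r = 0.995). KRT18 was closest to GAPDH, the glycolytic enzyme gene (r = 0.990), VIL1 to PRKACA, the catalytic subunit of protein kinase A (r = 0.989), and CDH17 to C9orf152 (r = 0.997). CDX2 was closest to HSPA12A (r = 0.977), KRT20 to PHLDB1 (r = 0.990) and HNF4A to EIF2B4 (r = 0.957). These values describe 9 libraries that fall apart by replicate number. After the mean of each number was removed, r was 0.983 for AGR2 with EPHB2, 0.982 for AQP3 with BCL2L15, 0.979 for KRT19 with CYB5B, 0.983 for VIL1 with PRKACA and 0.875 for HNF4A with EIF2B4.

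Among related genes, a list taken as simple keratins, with KRT80 counted in it, had 7 tested members. In the blocked fit 3 of the 7 were lower with SM than in untreated cells and 0 higher, against 1.54% and 1.2% of all tested genes. Besides KRT19 these were KRT7 (14.7 ± 3.47 CPM with SM and 18.4 ± 3.79 CPM untreated) and KRT80 (234 ± 33.9 and 261 ± 26.8 CPM, SD, n = 3 each). KRT7, a type II keratin of ductal epithelia, fell by 0.32 on the log2 scale (SE 0.057, edgeR adjusted p = 0.00151 with the block) and KRT80 by 0.16 (SE 0.037, adjusted p = 0.0158). The same 3 genes were lower against DSM, where 2.15% of all tested genes were called as lower, and KRT7 fell by 0.30 (SE 0.058). KRT7 was called in 9 of 9 blocked fits with 1 library left out in both comparisons, and KRT80 in 5 and 6 of 9. Of 9 tested keratins of stratified or hair epithelia, only KRT16, a wound and stress keratin, was called. KRT16 rose by 0.70 (SE 0.17, edgeR adjusted p = 0.0214 with the block), to 2.06 ± 0.77 CPM with SM, against 1.24 ± 0.283 CPM in untreated cells, and was called in 5 of 9 fits with 1 library left out. Against DSM KRT16 rose by 0.62 (SE 0.17, adjusted p = 0.0401), called in 3 of 9.

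Some junction genes were called as lower. Of 25 tested genes of adherens and tight junctions, 1 was lower with SM than in untreated cells in the blocked fit. Against DSM 3 were lower. Of all tested genes, 1.54% were called as lower against untreated and 2.15% against DSM. F11R, which encodes the tight junction protein JAM-A, fell by 0.14 (SE 0.036, edgeR adjusted p = 0.0338 with the block) against untreated and by 0.17 (SE 0.036, adjusted p = 0.00505) against DSM. CDH1 fell by 0.27 against DSM (SE 0.063, adjusted p = 0.0396), at 239 ± 73.1 CPM with SM and 285 ± 50.6 CPM with DSM, and CGN, the cingulin gene, by 0.20 (SE 0.056, adjusted p = 0.0489). Of 14 desmosome and plakin genes, JUP, the plakoglobin gene, fell by 0.12 against untreated (SE 0.032, adjusted p = 0.0431) and by 0.11 against DSM (SE 0.032, adjusted p = 0.0491), by edgeR with the block. With 1 library left out, F11R was called in 4 of 9 fits against untreated and 7 against DSM, JUP in 3 and 1, CDH1 against DSM in 6 and CGN in 2. Of 21 tested brush border genes only VIL1 was called.

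Secretory genes moved in both directions. Of 19 tested goblet and secretory genes, AGR2 was lower and TFF2 higher with SM than in untreated cells in the blocked fit. Against DSM, AGR2, SPDEF and MUC1 were lower and TFF2 higher. Of all tested genes, 1.54% were called as lower and 1.2% as higher against untreated, and 2.15% and 1.73% against DSM. SPDEF, the transcription factor of goblet cell maturation, had 2.24, 0.813 and 1.04 CPM with SM, 3.26, 1.97 and 1.90 CPM with DSM, and 2.78, 1.41 and 1.78 CPM without treatment. It was lowest with SM and highest with DSM within each number. SPDEF fell by 0.82 against DSM (SE 0.16, edgeR adjusted p = 0.00333 with the block) and was called in 9 of 9 fits with 1 library left out. Against untreated cells its log2 fold change of -0.56 (SE 0.16) did not pass (edgeR adjusted p = 0.0671 with the block). TFF2, a trefoil peptide gene of gastric mucous cells, rose by 0.43 (SE 0.12, edgeR adjusted p = 0.046 with the block), to 3.91 ± 0.502 CPM with SM, against 2.88 ± 0.16 CPM untreated, and by 0.44 (SE 0.12, adjusted p = 0.0354) against DSM, but was called in 2 and 3 of 9 fits with 1 library left out. MUC1, a membrane mucin gene, fell by 0.25 against DSM (SE 0.061, adjusted p = 0.0232 with the block) and was called in 5 of 9.

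Of 18 tested genes of absorptive cells, 0 were called for SM against untreated in the blocked fit, and AQP3 and TSPAN8 were lower against DSM. The comparison with DSM called 2.15% of all tested genes as lower. TSPAN8, a tetraspanin gene, had a log2 fold change of -0.29 against DSM (SE 0.082, edgeR adjusted p = 0.0482 with the block), but of -0.0011 against untreated cells, and was called in 1 of 9 fits with 1 library left out. Of 6 tested aquaporin genes only AQP3 was called, and AQP11 was the next most abundant. No gene of the 10 tested enteroendocrine markers or the 8 tested Paneth and tuft markers was called with or without the block. The most abundant of these were ENO2 (26.8 CPM) and PAX6 (10 CPM), and LYZ (6.44 CPM) and PTGS1 (4.57 CPM).

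Of 30 tested intestinal transcription factor genes, 3 were lower with SM than in untreated cells in the blocked fit and 0 higher, against 1.54% and 1.2% of all tested genes. ISX, a homeobox gene of the gut, fell by 0.38 (SE 0.091, edgeR adjusted p = 0.0214 with the block), ID1, a target of BMP signals, by 0.22 (SE 0.054, adjusted p = 0.0217) and MYB by 0.17 (SE 0.043, adjusted p = 0.0296). With 1 library left out they were called in 5, 4 and 3 of 9 fits. Against DSM, SPDEF and EHF, an epithelial ETS factor gene, were lower, EHF by 0.16 (SE 0.038, adjusted p = 0.0176 with the block). The comparison with DSM called 2.15% of all tested genes as lower. EHF was called in 5 of 9 fits with 1 library left out. CDX2 and HNF4A were not among the genes called in any of the 3 treatment comparisons.

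The family of AGR2, the protein disulfide isomerases that help secreted proteins fold, had 4 of 20 tested members lower with SM in each of the 2 comparisons and 0 higher in the blocked fit, and 1 of the 4 in each was AGR2 itself. Of all tested genes 1.54% were called as lower against untreated and 2.15% against DSM. PDIA4 had 268, 252 and 256 CPM with SM, 308, 291 and 299 CPM with DSM, and 310, 299 and 287 CPM without treatment, so its SM libraries did not overlap the others. Groups overlapped for AGR2. PDIA4 fell by 0.21 in both comparisons (SE 0.032 each, edgeR adjusted p = 3.16e-04 and 2.24e-04 with the block) and was called in 9 of 9 fits with 1 library left out. On group alone DESeq2 called it in both (adjusted p = 0.0489 and 0.0488) and edgeR did not (adjusted p = 1). PDIA6 fell by 0.18 against untreated (SE 0.033, adjusted p = 0.00197) and by 0.13 against DSM (SE 0.033, adjusted p = 0.0188). CRELD2 fell against untreated by 0.21 (SE 0.041, adjusted p = 0.00529) and PDIA3 against DSM by 0.12 (SE 0.033, adjusted p = 0.0348), both with the block. With 1 library left out, PDIA6 was called in 9 and 5 of 9 fits, CRELD2 in 7 and PDIA3 in 2.

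**Figure D4:**
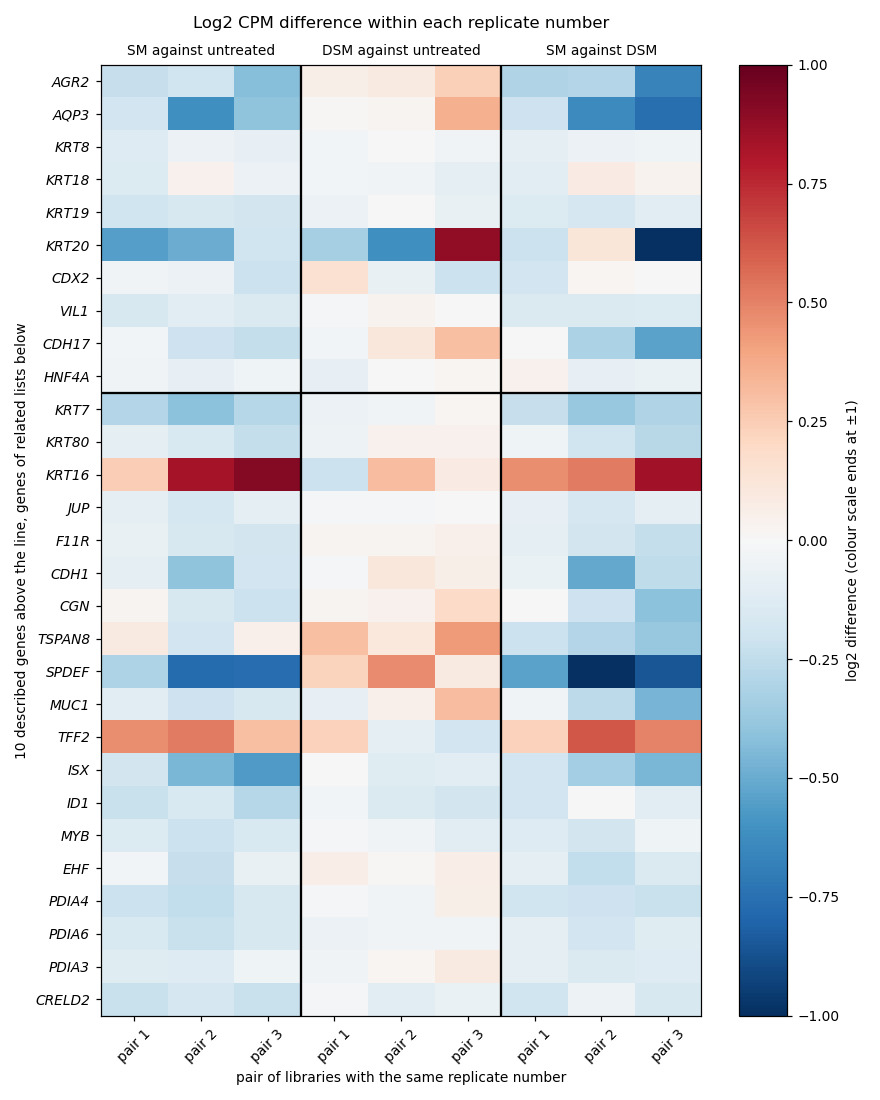
Colours give the log2 CPM difference between libraries of the same replicate number, for 3 pairs in each of the 3 comparisons, with blue lower and red higher in the first-named group. The 10 genes are above the line and 19 genes of related lists that were called in the blocked fit for a comparison with SM are below it, so their colours in those columns were used to choose them. VIL1 and PDIA4 are among several genes that are lower in all 6 pairs that involve SM, and TFF2 and KRT16 are red in all 6.

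Some genes of mesenchymal transition were lower with SM. Of 13 tested genes of this list, 4 were lower and 1 higher with SM than in untreated cells in the blocked fit. Of all tested genes, 1.54% were called as lower and 1.2% as higher. TNC, a matrix glycoprotein gene, fell by 0.50 (SE 0.058, edgeR adjusted p = 2.69e-04 with the block), VIM by 0.17 (SE 0.033, adjusted p = 0.0038) and TGFBI by 0.19 (SE 0.040, adjusted p = 0.00573). Against DSM 4 were lower and 2 higher, where 2.15% and 1.73% of all tested genes were. Among the lower were TNC by -0.55 (SE 0.058), FN1, the fibronectin gene, by -0.38 (SE 0.092), and TGFBI by -0.19 (SE 0.040). With 1 library left out TNC was called in 9 of 9 fits in both comparisons, TGFBI in 7 and 7, VIM against untreated in 7 and FN1 against DSM in 6. The summed level of this list lay between 1668 and 2593 CPM with SM, 1868 and 2830 CPM with DSM, and 1859 and 2945 CPM without treatment.

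Markers of other cell types were low. The summed levels of the 4 lists overlapped between groups, except that the leukocyte sum was lower in all SM than in all DSM libraries. The 12 fibroblast genes summed to 13 to 25.9 CPM with SM, 17.2 to 27 CPM with DSM and 16.4 to 27.8 CPM without treatment, with COL3A1, DCN and FAP at 0 reads. LUM, a proteoglycan gene of this list, was lower with SM in the blocked fit by 0.41 against untreated (SE 0.10, edgeR adjusted p = 0.0271) and by 0.46 against DSM (SE 0.10, adjusted p = 0.00877), and was called in 5 and 6 of 9 fits with 1 library left out. The 18 leukocyte genes summed to 25.4 to 27.8 CPM with SM, 28.1 to 33.5 CPM with DSM and 26 to 29.4 CPM without treatment, led by CD68 (17.1 CPM), with CD2 and TYROBP at 0 reads, and CD4 (2.2 ± 0.63 CPM with SM and 3.29 ± 0.788 CPM with DSM) was lower against DSM with the block (edgeR adjusted p = 0.0115) and in 6 of 9 fits with 1 library left out. The 12 endothelial genes, led by EGFL7 (2.33 CPM) and VWF (2.19 CPM), summed to at most 7.09 CPM. The 12 neural and muscle genes, led by DES (1.63 CPM) and MYH11 (0.196 CPM), summed to at most 2.69 CPM, with MYOD1 at 0 reads, and none of either list was called. Their part in the results was not tested.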

How the data were processed

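Per the labels' protocols, RNA came from TRIzol extraction and NuGEN's Universal Plus mRNA-seq kit gave the libraries. The submitters' processing notes name the build hg38, cutadapt 3.4, TopHat2 2.1.1 and featureCounts 2.0.0. Which annotation, strand option and rule for multi-mapping reads were used is not given in the sources used here. The authors deposited raw read counts without normalization for 28307 genes, and these counts were the values used. A table of scaled counts was not used.

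The analysis used edgeR 4.0.16 in R 4.3.3. A filter on low counts (filterByExpr with the groups, at least 10 counts and a total of 15) kept 15619 genes, and TMM scaled the libraries. CPM values use the scaled totals, and log2 CPM a prior count of 2. A robust quasi-likelihood model on group was fitted to all 9 libraries. F tests were two-sided, with Benjamini-Hochberg adjusted p below 0.05 over all tested genes as the threshold. The comparison of the libraries numbered 1 with those numbered 2 and 3 used the fit with group and replicate number. The design text calls the replicates biological, and the labels do not say what a number shares.

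By a rule set with the design, the numbers pair the libraries: after subtracting group means, the 9 pairs with 1 number correlated at 0.227 to 0.582 and pairs with different numbers at -0.404 to 0.161. Values from the fit with this block are therefore printed where they change a call. The tests were tried on simulated counts.

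Gene positions and lengths are from GENCODE 29 (GRCh38) and promoters from RefSeq (GRCh38.p14), in which 6 of the 10 genes were matched. The genes and the 17 related lists were chosen with earlier results of these data known. From each list the text names up to 4 members called in a comparison, with or without the block, and of a list with no call its 2 most abundant genes; some results of these lists are not reported here. Genes of like pattern are the 3 with the highest Pearson r of log2 CPM over the 9 libraries, among genes of at least 10 CPM on average. Alternatives were other scalings (DESeq2 size factors, library totals), no or a stricter filter, DESeq2 1.42.0, limma voom 3.58.1, the block, leaving out each library and, added after the data were seen, leaving out the 3 libraries numbered 1.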

Additional observations from a re-analysis of the deposited data

Results flagged for a closer look

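For 4 of the 10 genes the effect of SM differed from that of DSM in the fit with the replicate number. Both effects are taken against the same untreated libraries, so this is the SM against DSM test given above and not a further one. With the block that test called 2.15% of all tested genes as lower and 1.73% as higher. On group alone it called 0 of the 10 genes. The blocked log2 difference was -0.415 for AGR2, -0.506 for AQP3, -0.136 for KRT19 and -0.144 for VIL1, and the SM library was lower in 3 of 3 pairs for each. Groups of 3 libraries are too small for a search for single outlying samples.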

How the results depend on the processing

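On group alone 0 of the 10 genes were called in the 3 treatment comparisons under another scaling, filter or tool with all libraries, and 0 for DSM against untreated under every alternative. With the replicate block 3 genes were called for SM against untreated and 4 for SM against DSM. With the block these counts were 4 and 4 by DESeq2, 3 and 4 by limma voom, 3 and 4 with DESeq2 size factors, and 2 and 4 with library totals. Without the 3 libraries numbered 1 they were 1 and 2, and 2 and 4 with the block (AQP3 and KRT19, and AGR2, AQP3, VIL1 and CDH17). Leaving out 1 library gave 0 to 4 and 0 to 5, with and without the block. Between replicate 1 and the others 9 genes were called, among them KRT20, where 21.7% of all tested genes were called as higher and 20.3% as lower. The stricter filter, at 1 CPM, left KRT20 untested (at most 0.622 CPM in any library), so not all 9 could be called under it. Over all genes the block gave 187 higher and 241 lower calls for SM against untreated, where group alone gave 3, and 270 higher and 336 lower for SM against DSM, where group alone gave 0 by edgeR (396 with unadjusted p under 0.05).

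Signs turned in fits where the gene was not called. KRT18 for SM against DSM was 0.00459 by limma voom, 0.00537 with the block, 0.0053 with block and DESeq2, 0.0042 with block and limma voom, 0.00506 with block and DESeq2 size factors, and 0.00348 with block and library totals. Without the libraries numbered 1, and then with the block too, KRT20 for DSM against untreated was 0.264 and 0.249, HNF4A 0.0138 and 0.0136, KRT18 for SM against DSM 0.0616 and 0.0611, and CDX2 0.0161 and 0.0108. Leaving out 1 library leaves the replicate numbers unequal between groups, and the log2 fold changes whose sign turned spanned these ranges. For SM against untreated they were -0.252 to 0.0624 for CDX2, -0.35 to 0.045 for CDH17, -0.648 to 0.0565 for AGR2, -0.184 to 0.0176 for KRT8, -0.0993 to 0.0352 for KRT18, -0.381 to 0.0278 for KRT19, -1.43 to 0.447 for KRT20, -0.26 to 0.0135 for JUP, -0.89 to 0.0331 for ISX, -1.1 to 0.0605 for TNC and -0.333 to 0.0037 for VIM. For DSM against untreated they were -0.161 to 0.451 for AGR2, -0.138 to 0.448 for AQP3, -0.0636 to 0.0612 for VIL1, -0.71 to 0.845 for KRT20, -0.0508 to 0.018 for HNF4A, -0.129 to 0.0895 for KRT8, -0.244 to 0.164 for KRT19, -0.158 to 0.0353 for KRT18, -0.036 to 0.312 for CDH17 and -0.204 to 0.111 for CDX2. For SM against DSM they were -0.159 to 0.0632 for CDX2, -0.0657 to 0.104 for KRT18, -0.0717 to 0.00746 for HNF4A, -0.163 to 0.0361 for KRT8, -0.336 to 0.0619 for KRT19, -1.31 to 0.185 for KRT20, -0.253 to 0.0156 for JUP and -0.373 to 0.032 for EHF. KRT20, with 5 to 40 reads per library, is limited by depth.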
